A study of Mus musculus with 8 samples.

Results

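The genes of the actomyosin apparatus were followed in mouse brain pericyte cultures exposed to TGF-β1. They were chosen by symbol among protein-coding genes and comprised the actins and α-actinins, the myosin heavy chains, the myosin light chains and their kinases, the unconventional myosins, the tropomyosins and the troponins. The rule matched 77 of the 54532 Ensembl gene identifiers, and these carried 76 symbols because Myl12b had a pair of identifiers. By role, 5 genes encode smooth muscle forms, 11 non-muscle forms, 4 tropomyosins, 32 sarcomeric forms of striated muscle and 25 unconventional myosins. The samples were 8 primary cultures of wild-type (WT) mouse brain pericytes, the mural cells of capillaries, of which 4 received vehicle and 4 received TGF-β1 at 5 μg/mL. All were harvested at 48 h for bulk sequencing of stranded total RNA, and the labels name no other allele or agent in either group. The cells had been isolated from brain by enzymatic digestion and passaged before use, so they were cultured cells rather than pericytes in tissue. The labels number the vehicle cultures 1 to 4 and the TGF-β1 cultures 5 to 8, in which order values are given below, and they do not state from which animals the cultures came. The methods describe 4 isolates given vehicle and TGF-β1, so cultures of the 2 groups may share isolates, but the labels do not pair them and the groups were compared as unpaired.

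Cells contract when myosin II, a motor of heavy and light chains, pulls on actin filaments. In smooth muscle and in non-muscle cells the signal is phosphorylation of the regulatory light chain by myosin light chain kinase, which calcium and calmodulin activate and which a myosin phosphatase opposes, whereas in striated muscle calcium acts through troponin and tropomyosin on the thin filament. Vertebrate genomes carry separate genes for the smooth muscle, non-muscle and sarcomeric forms, and mural cells are known for expressing smooth muscle forms to a degree that differs along the vascular tree. Most unconventional myosins are motors that carry cargo or link membranes to actin and do not form thick filaments.

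The libraries held between 45255235 and 47651397 counts in the vehicle cultures and between 45988208 and 46827358 in the TGF-β1 cultures, so that 3 counts corresponded to 0.0631 to 0.0658 CPM, the unit of level used here, which is the count per 1000000 counts of a library after TMM scaling. The cultures were checked for the labelled cell type with a list of 9 pericyte markers, whose summed level was 418 to 439 CPM with vehicle and 578 to 601 CPM with TGF-β1. Within that list 3 genes rose and 2 fell among 7 tested. Pdgfrb (means of 202 and 291 CPM) and Cspg4 (82.9 and 169 CPM) made most of the sum and rose, as did Mcam. Rgs5 fell from 8.62 to 2.13 CPM (log2 fold change −2.015), and Anpep fell too. Notch3 and Des (25 to 36 counts) did not pass the test. Abcc9 (0 to 9 counts) and Kcnj8 (0 to 2 counts), markers of brain pericytes in tissue, were at or near 0 in every culture. Fibroblast markers summed to 1653 to 1734 CPM and 2567 to 2695 CPM, with 1 of 5 rising (Col1a1) and 2 falling, of which Dpt missed the threshold with DESeq2 (adjusted p = 0.0846). Col1a1 made most of that sum, with means of 1587 CPM with vehicle and 2525 CPM with TGF-β1. Endothelial markers summed to 389 to 404 CPM and 372 to 399 CPM with 1 of 5 falling (Tek, edgeR adjusted p = 0.115 without vehicle culture 1), and Cdh5 made nearly all of that sum, whereas Cldn5 lay at 0 to 10 counts. Astrocyte markers (14.9 to 16.1 against 23.4 to 26.4 CPM, 2 of 4 rising) and microglial markers (2.87 to 3.84 against 4.26 to 5.09 CPM, 1 of 5 rising) were low. Skeletal muscle markers stayed between 0.455 and 0.806 CPM with none of 6 passing the test, and heart muscle markers between 1.14 and 1.69 CPM with 1 of 5 passing (Nppb, whose groups overlapped and whose adjusted p was 0.0485 with edgeR and 0.0968 with DESeq2). The part of these markers in the results below was not tested, and in bulk RNA fewer cells of a type and less RNA per cell cannot be told apart.

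TGF-β1 was accompanied by small changes in opposite directions across the family. Of the 77 genes, 55 passed the filter on low counts, and 27 of these (49.1%) passed the threshold of 0.05 on the adjusted p of edgeR's quasi-likelihood test, against 41.3% of all 22544 genes tested. In the family 17 genes rose and 10 fell, where 20.9% of all tested genes rose and 20.3% fell. The median log2 fold change of the 55 was 0.04, beside −0.01 over all genes, and the median size of the change was 0.19 beside 0.18. The levels of the 2 groups did not overlap for 29 of the 55 (52.7%, against 37.9% of all genes tested), with 16 higher (19.1% of all genes) and 13 lower (18.8%) under TGF-β1. Of the 55, 7 passed the test with a log2 fold change of at least 0.5 in size, close to the share of 14.0% of all genes tested. The other 22 identifiers reached at most 19 counts in any culture and were not tested, and 1 of them had no count in any culture.

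**Figure D1:**
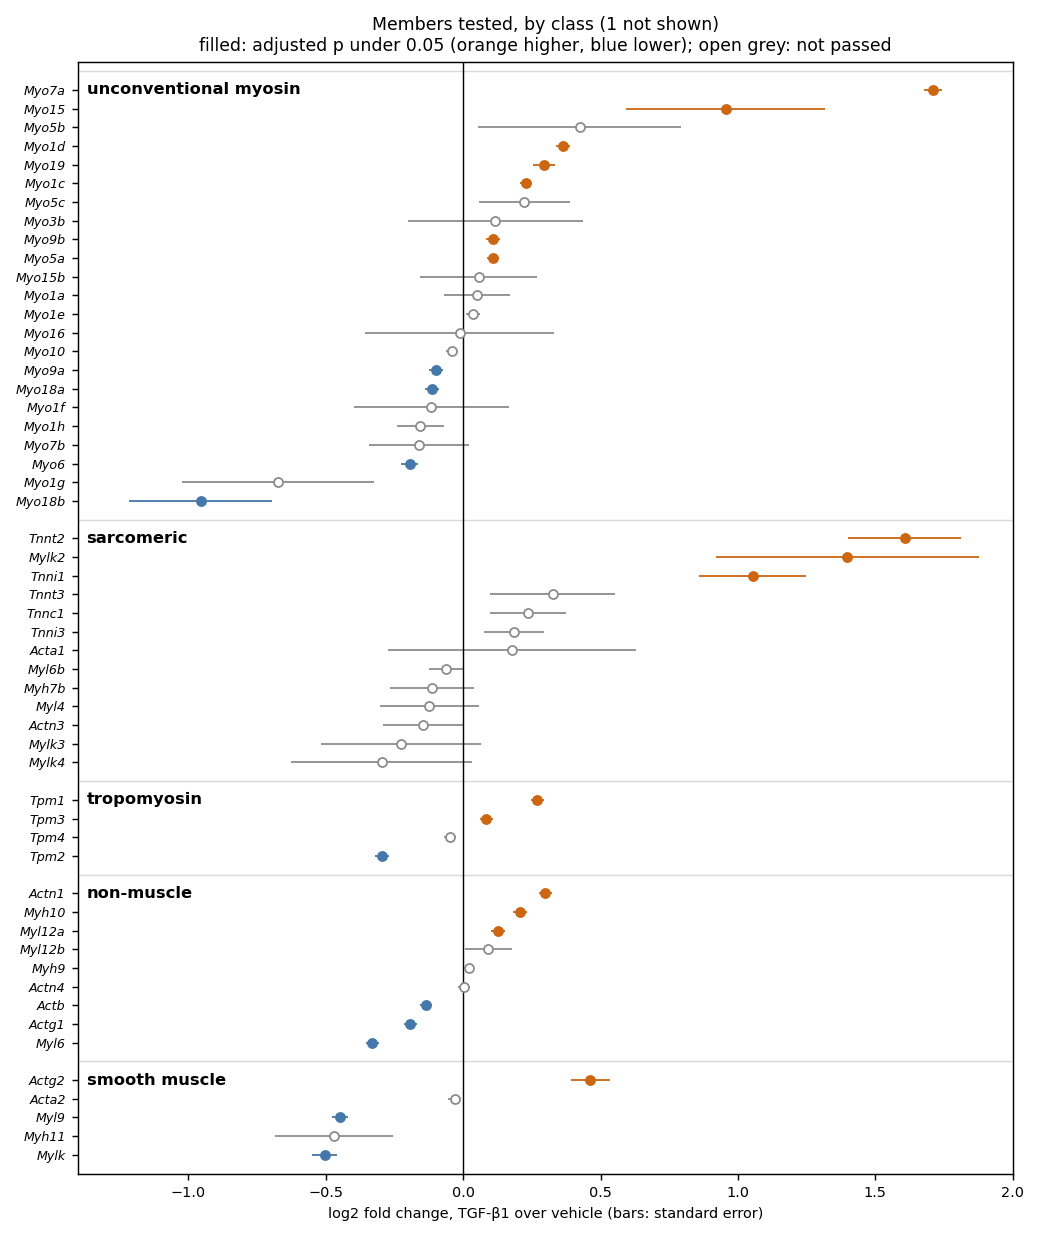
Log2 fold change (TGF-β1 over vehicle, horizontal axis) with its standard error for the 55 members tested except 1 that is not shown, grouped by class, with filled points for adjusted p under 0.05 (orange higher, blue lower) and open grey points for the rest. Myo7a at 1.71 and Tnnt2 at 1.61 lie farthest to the right, while 2 of the 3 smooth muscle genes that passed the test lie left of 0.

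Many actin and myosin genes are known targets of the transcription factor SRF, which binds the CArG box, and the box is shown here where it lay before the start of a member. RefSeq promoters (GRCm38.p6) were matched for 64 of the 76 symbols, giving 79 promoters, and the 250 bases before each start were searched on both strands. An exact CArG box was found in 9 of the 79 (11.4%) and in 1.47% of the 32851 promoters of all genes. CATTCC, the core of the M-CAT element, was found in 20 (25.3%, against 12.6%) and CAGAC, a SMAD-binding sequence, in 43 (54.4%, against 42.2%), and no member's window held overlapping matches to different motifs. The 9 genes with a box were Acta1, Actc1, Actg1, Myh4, Myl3, Myl6, Myl7, Myl9 and Myo1e. The smooth muscle genes Actg2 and Myh11 had no matched promoter and were not searched. Of the 5 that were tested, Actg1, Myl6 and Myl9 fell with TGF-β1 and Acta1 and Myo1e did not pass the test. Over all genes tested 20.3% fell and 20.9% rose, and 5 genes are too few for a comparison with these shares. A relation of the box to the changes was not tested. The window of Acta2 held 1 CATTCC and 1 CAGAC and no exact box, and 217 of its 250 bases lie in annotated exons. The Myl6 window with the box lies wholly in annotated exons, and the window of the other Myl6 start held no box. Stretches outside annotated exons are given for a smooth muscle, a non-muscle and a sarcomeric gene, 5′ to 3′ on the coding strand with the CArG box in capitals, from Myl9 (chr2:156775214-156775419, plus strand), Actg1 (chr11:120348543-120348677, minus strand) and Acta1 (chr8:123894776-123895025, minus strand).
Myl9: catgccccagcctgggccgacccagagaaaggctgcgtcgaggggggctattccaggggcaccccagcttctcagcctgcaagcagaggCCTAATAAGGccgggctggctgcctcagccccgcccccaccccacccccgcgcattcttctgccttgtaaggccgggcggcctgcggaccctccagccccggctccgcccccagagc
Actg1: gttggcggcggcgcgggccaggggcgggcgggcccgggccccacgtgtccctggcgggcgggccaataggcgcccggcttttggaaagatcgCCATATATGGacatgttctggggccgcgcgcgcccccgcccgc
Acta1: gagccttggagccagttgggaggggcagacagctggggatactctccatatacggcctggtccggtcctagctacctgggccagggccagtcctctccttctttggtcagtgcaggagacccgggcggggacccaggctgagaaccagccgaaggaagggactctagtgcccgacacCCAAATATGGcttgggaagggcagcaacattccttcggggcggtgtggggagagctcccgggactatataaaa

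Among the 5 smooth muscle genes, the light chain and its kinase fell, γ-actin rose, and α-actin did not pass the test. The class had 1 gene higher and 2 lower (60% called, against 41.3% of all genes), a median log2 fold change of −0.45, and non-overlapping groups for 4 of 5 genes (80%, against 37.9%). Myl9 (chromosome 2, 156775420 to 156781658 on GRCm38) encodes the regulatory light chain of smooth muscle myosin and carries the first of the boxes printed above. It was measured at 129, 119, 129 and 131 CPM with vehicle and at 91.2, 91.1, 92.4 and 97.2 CPM with TGF-β1. Every TGF-β1 culture lay below every vehicle culture, and the mean fell from 127 ± 5.30 to 93.0 ± 2.89 CPM (SD, n = 4 each), a log2 fold change of −0.45 ± 0.03 (SE, edgeR adjusted p = 6.26e-17). Mylk (chromosome 16, 34745210 to 35002420), the kinase that phosphorylates this light chain, was at 32.2, 35.3, 34.0 and 32.8 CPM and at 25.0, 22.6, 23.8 and 23.2 CPM. Its groups were also fully apart, with a log2 fold change of −0.50 ± 0.05 (edgeR adjusted p = 6.27e-13). Exons of other genes cover 6.85% of its exon length on the opposite strand, and the strand setting of the counting is not given in the sources used here. Counts per gene do not separate the transcripts of Mylk, so they do not show which form of the kinase fell.

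Actg2 (chromosome 6, 83512905 to 83536265), the γ-actin of visceral smooth muscle, moved in the opposite direction. Its levels were 8.40, 8.29, 8.10 and 7.78 CPM with vehicle and 11.3, 11.1, 10.5 and 12.02 CPM with TGF-β1. All TGF-β1 cultures were higher, by 0.46 ± 0.07 on the log2 scale (edgeR adjusted p = 4.75e-07). Acta2 (chromosome 19, 34241090 to 34255590), the α-actin of vascular smooth muscle, was at 731, 690, 743 and 761 CPM and at 699, 723, 703 and 736 CPM. These ranges overlapped, and the difference of −0.03 ± 0.02 did not pass the test (edgeR adjusted p = 0.339). Myh11 (chromosome 16, 14194535 to 14291372), the smooth muscle heavy chain, was low in all cultures, at 0.955, 1.08, 1.01 and 1.34 CPM with vehicle and 0.851, 0.697, 0.698 and 0.915 CPM with TGF-β1. Its groups did not overlap, yet with 32 to 62 counts per culture the log2 difference of −0.47 ± 0.21 missed the threshold (edgeR adjusted p = 0.0780).

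The non-muscle forms supplied most of the actin and myosin heavy chain message in these cultures, as the shares per length below show. The class split evenly, with 3 of 9 tested genes higher, 3 lower and a class median of 0.02. Called were 66.7%, against 41.3% of all genes tested. Over all genes tested 20.9% rose and 20.3% fell. Actb, the cytoplasmic β-actin, was at 2373, 2407, 2519 and 2517 CPM with vehicle and at 2236, 2256, 2201 and 2247 CPM with TGF-β1. Actg1, the cytoplasmic γ-actin whose promoter is printed above, was at 451, 474, 493 and 495 CPM and at 422, 422, 412 and 419 CPM. Both were lower in every TGF-β1 culture, with log2 fold changes of −0.13 ± 0.02 and −0.19 ± 0.02 (edgeR adjusted p = 9.39e-07 and 1.06e-08). Reads of Actg1 are partly uncertain, since 37.4% of its 50-base words occur in other genes, mainly pseudogenes, against 9.12% for Actb, 0.326% for Acta2 and 0 for Actg2. Myl6, the essential light chain shared by smooth muscle and non-muscle myosin, fell most in this class, from 238, 239, 244 and 252 CPM to 192, 195, 194 and 193 CPM (log2 fold change −0.33 ± 0.02, edgeR adjusted p = 1.15e-15).

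The non-muscle genes that rose were a crosslinker, a heavy chain and a light chain. Actn1, an α-actinin that bundles actin filaments at adhesions and stress fibres, was at 522, 514, 542 and 548 CPM with vehicle and at 629, 654, 652 and 683 CPM with TGF-β1, a rise of 0.30 ± 0.02 on the log2 scale (edgeR adjusted p = 6.73e-14). Its paralogue Actn4 gave means of 600 and 602 CPM, a log2 difference of 0.003 (edgeR adjusted p = 0.927). Myh10, the non-muscle heavy chain IIB, was at 152, 148, 155 and 153 CPM and at 170, 180, 177 and 175 CPM. All 4 TGF-β1 cultures lay above the vehicle range, with a log2 fold change of 0.21 ± 0.03 (edgeR adjusted p = 3.64e-09), while the heavy chain IIA gene Myh9 had means of 2836 and 2877 CPM (log2 difference 0.02, edgeR adjusted p = 0.452). The regulatory light chain gene Myl12a rose from a mean of 151 to 165 CPM (log2 fold change 0.13, edgeR adjusted p = 5.64e-05). Its level is uncertain, since 16.4% of its words occur in other genes and 13.8% of its exon length is overlapped on the same strand. Its neighbour Myl12b had means of 6.86 and 7.31 CPM (log2 difference 0.09, edgeR adjusted p = 0.427), and it is uncertain as well because a further identifier of that symbol, whose exons lie wholly within those of Myl12a and Myl12b, covers 26.7% of its exon length and received 0 counts in all 8 cultures. Myh14, the heavy chain IIC, had 2 to 16 counts and was not tested.

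**Figure D2:**
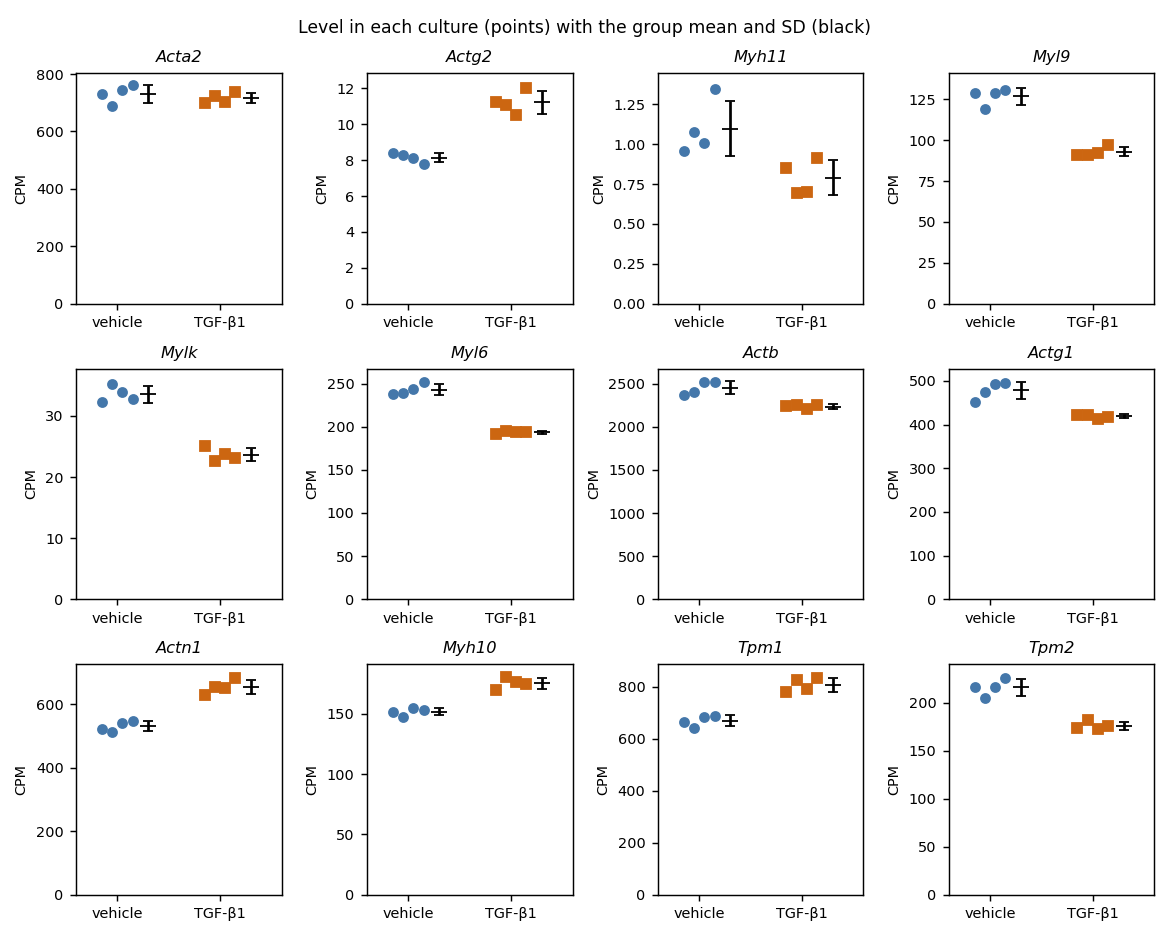
Level in CPM (vertical axes, starting at 0) of 12 smooth muscle, non-muscle and tropomyosin genes in each of the 4 vehicle (circles) and 4 TGF-β1 (squares) cultures, with the group mean and SD in black. Acta2 is the panel in which the groups overlap, and Myl9, Mylk, Myl6 and Tpm2 show TGF-β1 cultures below the vehicle range while Actg2, Actn1, Myh10 and Tpm1 show them above it.

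Ratios of smooth muscle to non-muscle forms within a culture are free of any scaling between libraries, and they were formed for 14 pairs from counts with 0.5 added. Of these 13 were tested, 12 had fully separate groups, and each of the 12 reached the smallest p that 4 against 4 cultures allow (exact two-sided permutation test over 70 assignments, p = 0.0286, adjusted over the 13 pairs to 0.0310). Every tested pair held a member whose groups were apart by itself, and several members recur. The ratios therefore restate results by gene and are not separate support for them. Groups did not overlap for 37.9% of all genes tested, and the share over other gene pairs was not computed. The ratios did not all move toward one form. Myl9 fell against Myl12a from 0.810 to 0.860 in the vehicle cultures to 0.533 to 0.594 in the TGF-β1 cultures, a log2 difference of −0.58, and gave −0.54 against Myl12b, with the uncertainty of both denominators given above. Myh11 fell against Myh9 by 0.48 on the log2 scale, on the low counts given above. For actin the direction was opposite, with the non-muscle forms lower, Actg2 higher and Acta2 not past the test. Acta2 over Actb rose from 0.287 to 0.308 with vehicle to 0.313 to 0.328 with TGF-β1 (log2 difference 0.10), Acta2 over Actg1 by 0.16, and Actg2 over Actb by 0.59. Between the smooth muscle actins, Actg2 over Acta2 rose by 0.49. Within the non-muscle forms, Actn1 over Actn4 rose from 0.869 to 0.897 to 1.06 to 1.13 (log2 difference 0.30), and Myh10 over Myh9 rose by 0.19. Acta1 over Actb overlapped between the groups (log2 difference 0.54, exact permutation p = 0.543), and Actc1 over Actb was too low to test.

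**Figure D3:**
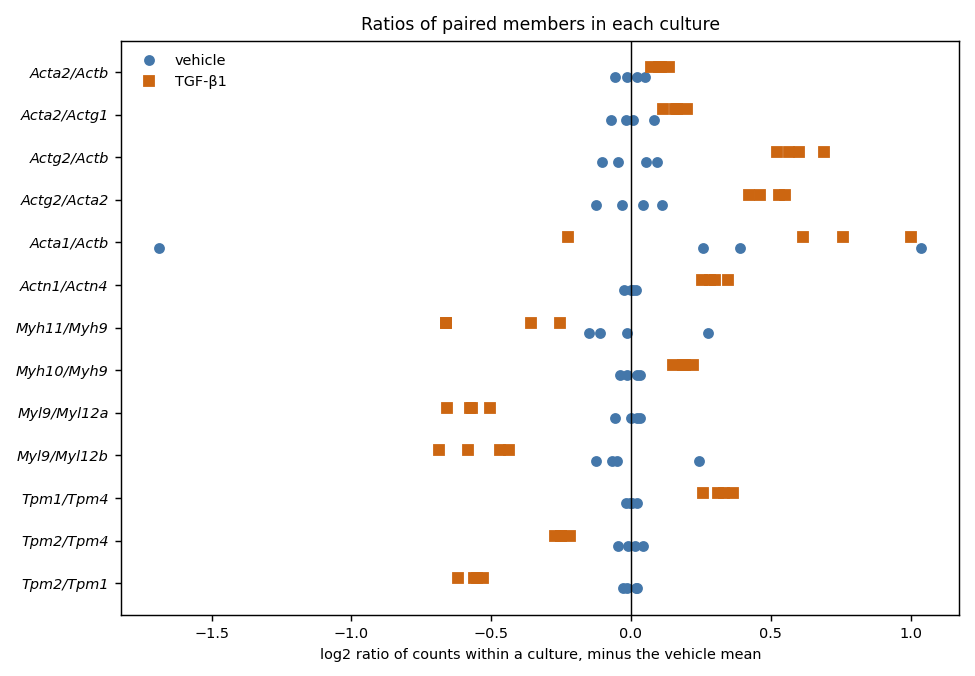
Log2 ratio of 2 members within each culture, drawn for the 13 pairs tested as the difference of every culture from the vehicle mean, with vehicle and TGF-β1 cultures as separate points. The groups are apart for the 12 pairs with an exact permutation p of 0.0286, among which Myl9 over Myl12a and Tpm2 over Tpm1 moved down and Actg2 over Actb moved up.

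Levels of different genes were compared as CPM per kilobase of the principal transcript, expressed as a share of their family. Among the actins Actb made 67.7 ± 0.313% with vehicle and 67.0 ± 0.220% with TGF-β1 (SD, n = 4), Acta2 19.02 ± 0.513% and 20.2 ± 0.317%, and Actg1 13.0 ± 0.247% and 12.3 ± 0.112%. Actg2 made 0.324% and 0.484%, and the sarcomeric actins Acta1 and Actc1 stayed below these at 0.00761% and 0.00249% with vehicle. Of the smooth and non-muscle heavy chains Myh9 made 95.1% and 94.5%, Myh10 4.86% and 5.49%, and Myh11 0.0423% and 0.0299%. On these counts the smooth muscle α-actin came next after Actb, while the smooth muscle heavy chain was a trace component in both groups. The rank of Acta2 over Actg1 is uncertain, since 37.4% of the 50-base words of Actg1 occur in other genes. For the regulatory light chains Myl9 was at 58.1% and 48.2% and Myl12a, with the uncertainty given above for its level, at 40.2% and 49.8%. Which of these leads in the TGF-β1 cultures depends on the length used, since on the summed exon length Myl9 stayed first at 60.8% against 37.2%.

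The tropomyosins, which line the actin filament and set which myosins and other proteins can bind it, also moved apart. Tpm1 (chromosome 9, 67022590 to 67049406) was at 664, 641, 686 and 690 CPM with vehicle and at 779, 827, 792 and 835 CPM with TGF-β1, and rose by 0.27 ± 0.02 on the log2 scale (edgeR adjusted p = 2.60e-12). Tpm2 (chromosome 4, 43514711 to 43523765) was at 216, 205, 217 and 226 CPM and at 174, 182, 173 and 175 CPM, and fell by 0.30 on the log2 scale (SE 0.03, edgeR adjusted p = 7.31e-13). Neither gene had overlapping groups, and Tpm2 over Tpm1 accordingly fell from 0.316 to 0.327 with vehicle to 0.210 to 0.223 with TGF-β1, a log2 difference of −0.57. Tpm3 rose slightly, from a mean of 345 to 366 CPM (log2 fold change 0.08, edgeR adjusted p = 0.00272), and Tpm4 gave means of 557 and 539 CPM (log2 difference −0.05, edgeR adjusted p = 0.0988). Against Tpm4, Tpm1 rose by 0.32 and Tpm2 fell by 0.25 on the log2 scale. Each of these genes makes several isoforms, muscle and non-muscle, from alternative promoters and exons, and counts per gene do not separate them. Words shared with other genes made 23.2% of those of Tpm3 and 11.7% of those of Tpm4, and none of those of Tpm1 and Tpm2.

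Sarcomeric forms were scarce, as 19 of the 32 genes reached at most 19 counts in any culture and 8 had a mean of at least 1 CPM in either group. Of the 13 tested, 3 rose and none fell (23.1% called, against 41.3% of all genes in either direction and 20.9% higher), with a median of 0.18, and the sign of this median changed with the filter and with the cultures used. Tnnt2, the cardiac troponin T that anchors the troponin complex to tropomyosin, had 28, 22, 39 and 20 counts with vehicle and 76, 86, 86 and 83 counts with TGF-β1. Its level rose from 0.586 ± 0.173 to 1.79 ± 0.104 CPM, a 3.04-fold difference with no overlap (log2 fold change 1.61 ± 0.21, edgeR adjusted p = 1.13e-08). Tnni1, the inhibitory troponin of slow skeletal muscle, had 59, 55, 49 and 23 counts and 89, 87, 107 and 102 counts. It was again higher in all TGF-β1 cultures, with a log2 fold change of 1.053 ± 0.20 (edgeR adjusted p = 1.82e-05). Tnnt2 and Tnni1 lie near each other on chromosome 1 (135836354 to 135852260 and 135779434 to 135810989). Mylk2, the myosin light chain kinase of skeletal muscle, had 4, 0, 10 and 9 counts and 12, 17, 15 and 17 counts (log2 fold change 1.40 ± 0.48, edgeR adjusted p = 0.0162), and without vehicle culture 1 or 2 its adjusted p was 0.0551 or 0.0853.

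The remaining sarcomeric genes with at least 1 CPM did not pass the test. They were Myl6b, an essential light chain also made outside striated muscle, at 13.5 and 12.9 CPM, the troponins Tnni3 (3.87 and 4.40 CPM) and Tnnc1 (2.32 and 2.73 CPM), the α-actinin Actn3 (2.55 and 2.31 CPM), the heavy chain Myh7b (2.49 and 2.31 CPM) and the light chain Myl4 (1.39 and 1.28 CPM). Their log2 differences ran from −0.15 for Actn3 to 0.24 for Tnnc1, with edgeR adjusted p values between 0.178 and 0.635. Other members are given by their counts and were chosen after their values were seen. The thick-filament heavy chains of adult muscle were hardly present, with 0 to 7 counts for Myh7, 0 to 4 for Myh6 and 0 to 6 for Myh1, and the sarcomeric actin Acta1, with the box printed above, had 2 to 17 counts. Of the skeletal muscle markers, Myod1 had 0 to 2 counts in any culture. Pax7, the only member of that list to be tested, had 12 to 28 counts and did not pass the test.

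**Figure D4:**
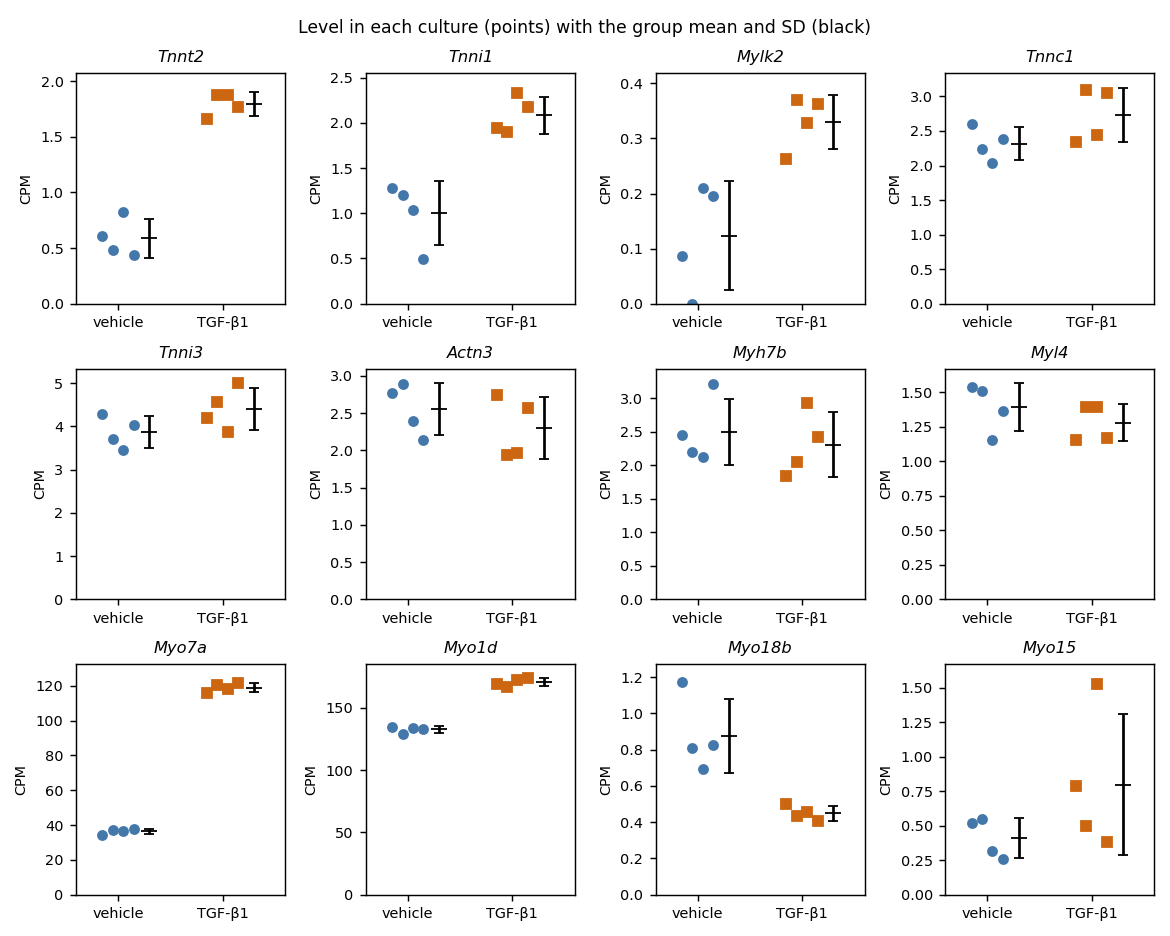
Level in CPM of sarcomeric genes and unconventional myosins named in the text, in each of the 4 vehicle and 4 TGF-β1 cultures, with the group mean and SD. Myo7a rises from 36.3 to 119 CPM with tight groups, Tnnt2 from 0.586 to 1.79 CPM, and Myo15 shows overlapping groups with 1 TGF-β1 culture far above the others.

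The unconventional myosins held the largest change of the family. Myo7a (chromosome 7, 98051060 to 98119524), a motor known from the stereocilia of the inner ear and from the retinal pigment epithelium, was at 34.3, 36.9, 36.7 and 37.5 CPM with vehicle. With TGF-β1 it was at 116, 120, 118 and 122 CPM. The cultures of each group lay close together and far from the other group, at 36.3 ± 1.42 and 119 ± 2.66 CPM (SD, n = 4), a 3.27-fold difference (log2 fold change 1.71 ± 0.03, edgeR adjusted p = 1.40e-36). Leaving out any culture kept the log2 value between 1.69 and 1.72, and 0.516% of its words occur in other genes. Myo18b, which is known from muscle, was at 1.17, 0.812, 0.695 and 0.823 CPM with vehicle and 0.502, 0.436, 0.458 and 0.404 CPM with TGF-β1, and fell by 0.96 on the log2 scale (SE 0.26, edgeR adjusted p = 0.00255). Myo15, another motor of inner ear stereocilia, was at 0.521, 0.548, 0.316 and 0.260 CPM and at 0.786, 0.501, 1.53 and 0.383 CPM. Its groups overlapped, and the log2 difference of 0.95 ± 0.36 (edgeR adjusted p = 0.0369) became 0.43 (adjusted p = 0.366) without TGF-β1 culture 7.

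In all, 12 of the 24 unconventional myosins tested passed the test, with 8 higher and 4 lower and a median of 0.05. This share of 50% compares with 41.3% of all genes tested. Apart from the 3 above, 6 rose by 0.11 to 0.36 on the log2 scale and 3 lay between −0.19 and −0.10. The following were chosen after their values were seen. Class I myosins are single-headed motors that tether membranes to actin. Among them Myo1d rose from a mean of 133 to 171 CPM (log2 fold change 0.36, edgeR adjusted p = 3.18e-16) and Myo1c from 339 to 397 CPM (0.23, edgeR adjusted p = 8.80e-12). Myo19, a mitochondrial motor, rose from 34.7 to 42.6 CPM (log2 fold change 0.29), and Myo5a, a carrier of vesicles, from 473 to 510 CPM (0.11). The class IX myosins split, with Myo9b up by 0.11 and Myo9a at −0.10. Myo6, the motor that moves toward the minus end of actin, fell from 89.3 to 78.0 CPM (log2 fold change −0.19, edgeR adjusted p = 1.77e-06). Myo10, a motor of filopodia, had non-overlapping groups at means of 505 and 491 CPM but did not pass the test (log2 difference −0.04, edgeR adjusted p = 0.135).

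A list of 27 regulators of actomyosin, outside the family, was read beside it. Of the 25 tested, 17 (68%, against the 41.3% of all genes) passed the test, with 9 higher and 8 lower and a median log2 fold change of −0.02. Of the 25, 3 passed with a log2 fold change of at least 0.5 in size, beside 14.0% of all genes tested. These 3 fell, and they are too few for a statement on direction. Srf, the factor that binds the box printed above, was at 85.7, 85.7, 92.0 and 92.5 CPM with vehicle and at 64.4, 63.2, 63.7 and 57.9 CPM with TGF-β1, so that all TGF-β1 cultures were lower, by 0.52 ± 0.03 on the log2 scale (edgeR adjusted p = 1.23e-16). Ppp1r12b, a targeting subunit of myosin phosphatase, fell from 251 ± 0.635 to 155 ± 7.36 CPM (log2 fold change −0.70 ± 0.03, edgeR adjusted p = 3.85e-25). Prkca, protein kinase C α, fell from 74.6 ± 1.16 to 51.4 ± 0.787 CPM (log2 fold change −0.54 ± 0.03, edgeR adjusted p = 6.16e-19). Others were chosen after their values were seen. Among the cofactors of SRF, Mrtfa fell (log2 fold change −0.21, edgeR adjusted p = 7.35e-09), Mrtfb rose (0.19, edgeR adjusted p = 5.31e-07), and Myocd, the smooth muscle cofactor, had 0 to 10 counts and was not tested. On the side of light chain dephosphorylation, the second targeting subunit Ppp1r12a fell (−0.31, edgeR adjusted p = 6.59e-15), the phosphatase inhibitor Ppp1r14b rose (0.49, edgeR adjusted p = 1.07e-16) and the catalytic subunit Ppp1cb did not pass the test (0.03, edgeR adjusted p = 0.413). A further targeting subunit, Ppp1r12c, rose slightly with overlapping groups (0.09, edgeR adjusted p = 0.0220, up to 0.0867 with a culture left out). The inhibitor Ppp1r14a, at 5 to 24 counts, did not pass the test (−0.67, edgeR adjusted p = 0.222). Of the small GTPases that activate ROCK kinases, Rhob rose by 0.41 and Rhoa by 0.10 on the log2 scale (edgeR adjusted p = 1.55e-05 and 4.64e-04), Rhoc gave −0.001 (edgeR adjusted p = 0.981), and of the kinases Rock1 gave 0.09 (edgeR adjusted p = 0.00971, and 0.0940 without TGF-β1 culture 6) while Rock2 gave −0.04 (edgeR adjusted p = 0.110).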

How the data were processed

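The authors deposited raw counts per gene, not normalized, for each culture. According to the methods and the submitters' processing notes, reads were aligned to mm10 with STAR 2.7.5c, cleared of PCR duplicates with SAMtools 1.15 and counted with featureCounts 2.0.3 (Subread). The annotation release, strand setting and treatment of reads shared between genes are not given in the sources used here. Of counts from 1 to 20, 68.5% to 70.2% were even, so both mates of a pair may have been counted and counts may exceed independent fragments.

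Symbols and positions came from GENCODE M21 (GRCm38). Counts were tested with edgeR 4.0.16 in R 4.3.3 (filterByExpr, TMM, robust quasi-likelihood, Benjamini-Hochberg over 22544 genes). CPM used TMM-scaled totals. A standard error is the log2 fold change divided by the square root of F. For ratios an exact permutation test, two-sided, was used. Shared sequence was the share of 50-base words of a gene's transcripts found in another gene's. The code was tested on simulated data. The methods describe 4 separate isolates that received vehicle and TGF-β1, so a culture of each group may come from the same isolate, but the labels do not say which. The cultures were therefore tested as unpaired groups. An SD measures the spread between the cultures of a group. The edgeR p-values and standard errors use that spread together with dispersions moderated over all genes tested. A permutation p places the observed grouping among all assignments of the cultures and does not measure spread.

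The members, lists and tests were chosen with earlier results of these data known. Named were all smooth muscle, non-muscle and tropomyosin genes, sarcomeric genes with a mean of at least 1 CPM in either group, and sarcomeric genes, unconventional myosins and regulators that passed the test with a log2 fold change of at least 0.5 in size. The values of 1 member are not reported here. Alternatives were DESeq2 1.42.0, DESeq2 size factors, library totals, other filters, counts per fragment and each culture left out.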

Additional observations from a re-analysis of the deposited data

How the results depend on the processing

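The family had between 25 (at least 10 counts in every culture, or counts per fragment) and 29 (library totals) genes past the threshold across tools, scalings and filters, beside 27. With single cultures left out the numbers were 26 to 28 for the family, 16 to 17 higher, 10 to 11 lower, 3 for smooth muscle, 6 for non-muscle, 3 to 4 for tropomyosins, 2 to 4 for sarcomeric genes, 11 to 12 for unconventional myosins and 15 to 17 for regulators. Counting Tpm1 and Tpm2 with the smooth muscle class gave 5 genes in place of 3. Counts per fragment left 12 ratios past the threshold, and with a culture left out the smallest possible p of a ratio is 0.0571. Of 33 named genes tested, 28 kept direction and call under every one of the 14 alternatives that gave a value. Actn4 turned to −0.008 with library totals, −0.002 with at least 1 count in any culture, −0.010 without vehicle culture 2 and −0.004 without TGF-β1 culture 7 (range over cultures left out −0.010 to 0.017), and Myh7b to 0.031 without vehicle culture 4 (range −0.249 to 0.031). Myo15 lost its call under 7 alternatives (adjusted p up to 0.366) and Mylk2 under 2, with no value under 2 others, and Tpm4 gained one with library totals (adjusted p = 0.0247) and without vehicle culture 2 (0.0207). The sarcomeric median was −0.063 with at least 10 counts in every culture and −0.045 without vehicle culture 2. The cause was not tested. No paired analysis was possible because the labels number the cultures 1 to 8 with no number shared between groups, although the methods leave it possible that vehicle and TGF-β1 cultures share isolates. Whether more depth would change the call of Myh11 (32 to 62 counts) was not tested.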
